A study of Mus musculus with 16 samples.

Results

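Ly6d, Ly6a, Ly6c1, Ly6c2 and Ly6e, 5 of the 55421 genes in the count table, were followed in mouse liver before and after regeneration. The set was chosen by the steep rise of Ly6d after liver resection, so the values of Ly6d in both comparisons of after against before are a description with no test. The other 4 genes were selected by name as further Ly6 genes. All 5 passed the filter of at least 10 counts over the 16 libraries.

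Liver poly-A RNA of male mice was sequenced in bulk, in 4 groups of 4 libraries. HIRA, which helps load histone H3.3 onto DNA outside S phase, was deleted by adeno-associated virus (AAV8) under the hepatocyte promoter Tbg, so hepatocytes were the targeted cells. In each HIRA KO group, 2 libraries came from HIRA fl/fl mice given AAV8 Tbg-Cre and 2 from wildtype mice given saCas9 with sgHIRA, and the controls were wildtype mice given AAV8 Tbg-Cre or saCas9 with sgRosa26. All mice therefore carried a virus, given at 6 months of age, and underwent resection 4 weeks later. The resected lobes were the samples before regeneration and the remaining lobes, taken 5 days later, the samples after it, so lobe, mode of collection and time cannot be told apart. Per the methods of the study, both kinds of tissue are taken from the same mice, but which library before belongs to which library after is in no label. The columns of the table give genotype, time and a running number that is in no label, but neither the mouse nor the deletion approach.

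Ly6 proteins are small, cysteine-rich proteins of the Ly6/uPAR family, most of them held on the outer face of the cell membrane by a glycosylphosphatidylinositol (GPI) anchor. Many are used as surface markers of blood cell lineages, and several are induced by interferon. Ly6d marks B cell-committed lymphoid progenitors and stratified epithelium, Ly6a (Sca-1) marks blood stem cells and some endothelium, Ly6c2 marks inflammatory monocytes, Ly6c1 is found on endothelium and some lymphocytes, and Ly6e is an interferon-induced gene of many tissues. The 5 genes lie on chromosome 15 of GRCm38 in GENCODE M21. Ly6d (ENSMUSG00000034634.7) lies at chr15:74762056-74763620 and Ly6a (ENSMUSG00000075602.10) at chr15:74994877-74998031, both on the minus strand. Ly6e (ENSMUSG00000022587.14), on the plus strand, lies at chr15:74955051-74959905. Ly6c1 (ENSMUSG00000079018.10) at chr15:75044018-75048830 and Ly6c2 (ENSMUSG00000022584.14) at chr15:75108158-75111970 are minus-strand neighbours.

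Ly6c1 and Ly6c2 are near-identical copies, and their sequences are shown because they limit what the counts of each can say. The first 300 coding bases of Ly6c1-201 and Ly6c2-201, from GENCODE M21 transcripts and read 5′ to 3′, are given with the 7 differing bases in capitals.
Ly6c1: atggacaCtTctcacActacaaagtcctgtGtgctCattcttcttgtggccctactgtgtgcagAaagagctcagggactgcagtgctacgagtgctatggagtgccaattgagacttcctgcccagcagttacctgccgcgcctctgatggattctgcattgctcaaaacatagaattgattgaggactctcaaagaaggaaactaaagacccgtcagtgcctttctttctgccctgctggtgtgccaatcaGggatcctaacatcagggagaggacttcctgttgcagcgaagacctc
Ly6c2: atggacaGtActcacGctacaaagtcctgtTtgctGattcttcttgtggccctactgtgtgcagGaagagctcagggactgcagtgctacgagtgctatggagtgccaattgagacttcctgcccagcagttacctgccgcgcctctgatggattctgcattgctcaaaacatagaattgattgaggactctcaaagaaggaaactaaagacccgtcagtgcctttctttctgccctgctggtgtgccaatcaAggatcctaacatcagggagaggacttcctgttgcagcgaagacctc
Over the whole coding sequence of 393 bases, 384 positions (97.7%) were identical. Of all stretches of 50 bases in the coding transcripts, 32.8% of those of Ly6c1 and 31.2% of those of Ly6c2 also occurred in a transcript of another gene, mostly of each other. For Ly6a the share was 19.0%, mostly with Ly6c1, and for both Ly6d and Ly6e it was 0%. How the counting treated such reads was not tested, so the split between Ly6c1 and Ly6c2 is uncertain and their summed counts were fitted as well. The sum cannot recover shared reads that counting may have left out. Ly6a, which shares stretches with Ly6c1, is not in it.

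Totals per library ran from 15103059 to 21738619 counts. Hira, the targeted gene, stood at 5.77 ± 0.448 CPM (counts divided by TMM-scaled library size; SD, n = 4) in control before, 3.54 ± 0.571 in HIRA KO before, 5.67 ± 0.554 in control after and 3.51 ± 0.707 in HIRA KO after. On the second principal component, which held 26.5% of the variance over 13176 genes, the HIRA KO libraries numbered 1 and 2 lay apart at both times, between -47.4 and -36.2, with every other library at -1.14 or above. For the comparison of after against before in HIRA KO, the values of the 5 genes are given with and without these 4 libraries. They were singled out after the data were seen, and without them each HIRA KO group keeps only the libraries numbered 3 and 4.

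Per gene length, Ly6e was the most abundant of the 5 genes in all 4 groups. In control before, Ly6e stood at 412 ± 85.0 FPKM (a level per transcript length and library size; SD, n = 4) and Ly6a at 14.9 ± 3.29 FPKM. Ly6c2 at 0.842 ± 0.0807 FPKM, Ly6c1 at 0.811 ± 0.273 FPKM and Ly6d at 0.615 ± 0.198 FPKM followed, and the libraries of these last 3 genes overlapped. In control after, the order had changed, with Ly6e at 1311 ± 185 FPKM, Ly6d at 138 ± 84.4 FPKM and Ly6a at 53.6 ± 1.64 FPKM. Those 3 did not overlap, whereas Ly6c2 (3.02 ± 0.390 FPKM) and Ly6c1 (2.82 ± 0.798 FPKM) did. In HIRA KO before, Ly6e at 439 ± 89.1 FPKM and Ly6a at 10.6 ± 2.78 FPKM preceded Ly6d at 8.62 ± 14.9 FPKM, and one Ly6d library lay above all 4 of Ly6a. In HIRA KO after, Ly6d at 102 ± 117 FPKM and Ly6a at 46.0 ± 33.1 FPKM overlapped, below Ly6e at 1148 ± 195 FPKM.

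**Figure D1:**
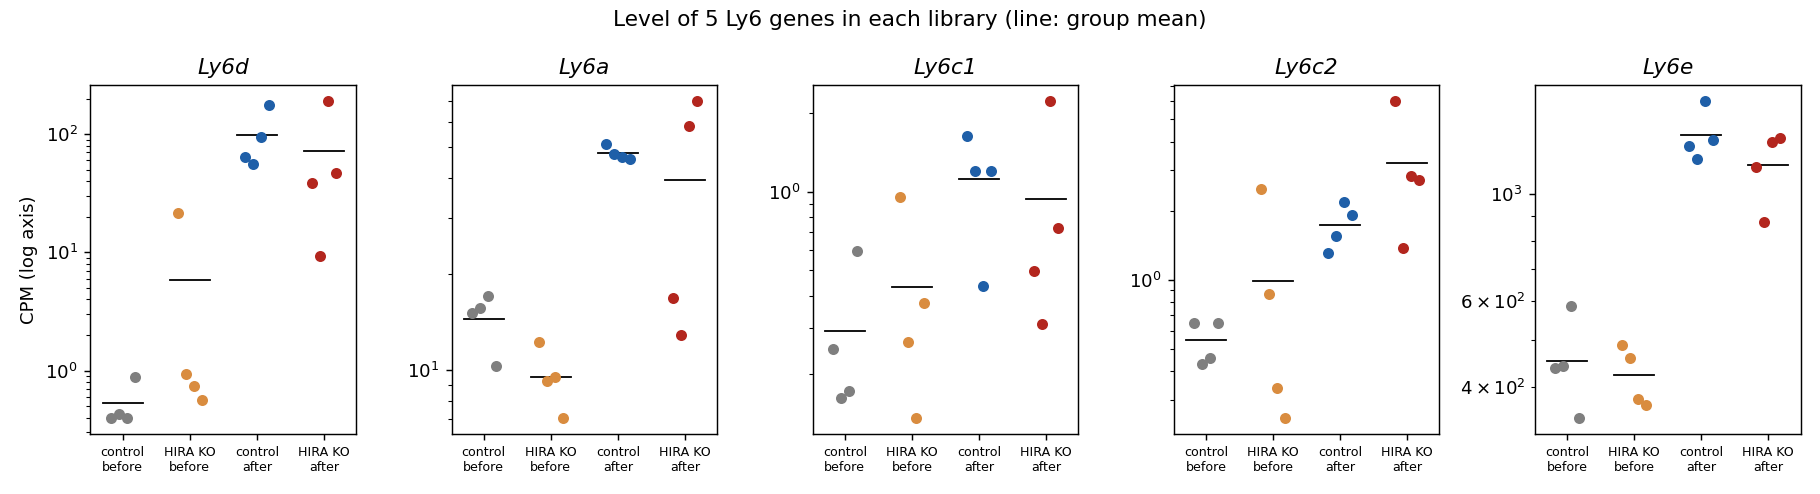
CPM of each of the 5 genes in each of the 16 libraries, on log axes, with 4 points per group and a line at the group mean. Ly6d was below 1 CPM in all control libraries before regeneration and above 55 CPM in all of them after it, and 1 HIRA KO library before regeneration stood at 21.3 CPM.

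Ly6d was close to absent from control liver before regeneration and abundant after it. Its 4 control libraries before held 0.398, 0.430, 0.401 and 0.888 CPM, from 7 to 15 counts each. After regeneration the control libraries held 64.2, 55.6, 94.7 and 177 CPM. The groups did not overlap, and the mean CPM after was 185 times the mean before. The fitted log2 fold change was 7.53 ± 1.48 (SE). These values chose the set, and nothing is read from them beyond the description. Across all genes tested in control, all libraries after lay above all before for 10.0% of the genes.

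In HIRA KO liver Ly6d was also higher on average after regeneration, with a far wider spread. The libraries before held 21.3, 0.934, 0.748 and 0.564 CPM. Those after held 38.7, 9.24, 191 and 47.3 CPM. The library numbered 1 before, with 403 counts against 9 to 14 in its group, lay above the library numbered 2 after, so the groups overlapped. The fitted log2 fold change was 3.56 ± 1.14. It was 6.59 ± 1.12 without that library before regeneration and 7.53 ± 1.06 without the 4 libraries that lay apart on the second component. In this genotype all libraries after lay above all before for 8.61% of the genes tested.

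The same library set the difference in Ly6d between the genotypes before regeneration. HIRA KO against control gave a log2 fold change of 3.52 ± 1.44, with a 95% interval of 0.39 to 6.65 and an adjusted p of 0.335 (edgeR quasi-likelihood test, Benjamini-Hochberg). Without the library numbered 1 the value fell to 0.51 ± 1.37, with an interval that the remaining libraries leave wide. DESeq2 gave 3.50 with an adjusted p of 0.0506. After regeneration Ly6d did not pass the test, at -0.45 ± 1.01 with an interval of -2.64 to 1.74 and an adjusted p of 0.874. This interval holds changes of several-fold in either direction.

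Markers of other cell types that express Ly6d were examined beside it. In bulk tissue, a change in the number of cells of a type and a change in RNA per cell cannot be told apart. Of the 11 stratified epithelium markers, Krt13, Krt6a, Krt15 and Ivl were at 0 in all 16 libraries, and Krt5, Krt14 and Trp63, named after their values were seen, stayed below 0.3 CPM. Krt14 was at 0 in all control libraries before and between 0.0480 and 0.115 CPM in those after. Its log2 fold changes, the largest of the 3 tested, were 3.48 ± 1.44 in control and 2.91 ± 1.12 in HIRA KO. Neither passed the edgeR test (adjusted p of 0.152 and 0.107). Sfn and Krt4, the most abundant, reached 3.67 and 0.816 CPM in single libraries, with log2 fold changes of 0.93 ± 0.44 and 1.11 ± 0.81 in control. Their summed level ran from 0.630 to 1.29 CPM in control before and from 1.32 to 2.45 CPM in control after, and from 0.544 to 2.17 CPM and 1.90 to 3.85 CPM in HIRA KO. None of the 3 that were tested was called in any comparison, although all 3 were positive in both genotypes, with median log2 fold changes of 1.11 and 1.01 after against before. The 10 B cell markers summed to between 12.7 and 39.5 CPM in control before and between 16.6 and 27.6 CPM in control after. In HIRA KO they summed to between 27.6 and 54.5 CPM before and between 22.8 and 56.6 CPM after. Of these only Ms4a1 was called higher in control after regeneration, and none in HIRA KO. In each genotype 7 of the 10 were positive, with median log2 fold changes of 0.69 and 0.48. Ighm, the most abundant of them, had a log2 fold change of -1.16 ± 0.53 in control, and Blnk, the next most abundant, 0.50 ± 0.53. The part of either cell type in the Ly6d values was not tested.

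The HIRA KO library with high Ly6d before regeneration was also the highest of its group for the mean levels of cholangiocyte, stratified epithelium, stellate cell and matrix, monocyte, neutrophil, B cell, T and NK cell and mitotic genes, and for the Ly6/uPAR genes outside the cluster. It was the lowest for interferon response genes (3.01), endothelial markers (4.39) and, narrowly, genes of the GPI anchor (3.540, the next being 3.542). Its mean log2(CPM + 1) over 10 cholangiocyte markers was 3.12, against 1.40 to 1.92 in the other 3 libraries of its group and 1.36 to 1.61 in control before. Its mean over 12 stellate cell and matrix markers was 5.12, against 3.44 to 4.44 in the others of its group. For B cell markers the mean was 1.92 against 1.06 to 1.65, for mitotic genes 1.70 against 0.815 to 1.44, and for monocyte markers 2.30 against 1.60 to 2.08. Spp1 and Sox9, the most abundant cholangiocyte markers, averaged 60.5 and 9.18 CPM in HIRA KO before and 48.8 and 6.74 CPM in control before, and Dcn and Col3a1 of the matrix list 178 and 73.9 CPM against 132 and 24.9 CPM. Their part in the Ly6d value was not tested.

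Over all 16 libraries the genes whose log2(CPM + 1) was most like that of Ly6d were Mki67 (Pearson r = 0.953), Golm1 (0.947), Kif15 (0.945), Cdkn2c (0.943), Top2a (0.940), Cdc25b (0.940), Jpt1 (0.940) and Pdlim7 (0.939). Mki67, Kif15, Top2a and Cdc25b act in dividing cells. The likeness is a description over libraries that share the 4 groups, so any gene that differs between the times takes part in it. Among deviations from the group means, Tpm2 (r = 0.896), Tmprss2 (0.863) and Fut8 (0.860) came first.

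The 16 mitotic genes rose with Ly6d from before to after, 16 called higher in control and 15 in HIRA KO, and their median log2 fold changes were 4.70 and 3.14 beside 0.00 and 0.02 over all genes. Their summed level was 11.2 to 22.7 CPM in control before and 68.9 to 568 CPM in control after. Mki67 went from a mean of 1.33 CPM to 49.5 CPM and Cdc20 from 0.940 CPM to 46.1 CPM in control. Among libraries of 1 group the order was the same only in HIRA KO after. There the mitotic means were 2.72, 2.22, 4.83 and 3.17 as log2(CPM + 1), beside 38.7, 9.24, 191 and 47.3 CPM of Ly6d. The control library after with the lowest mitotic mean (2.23 as log2(CPM + 1)) held 64.2 CPM of Ly6d, above the 55.6 CPM of the library with a mitotic mean of 3.85.

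**Figure D2:**
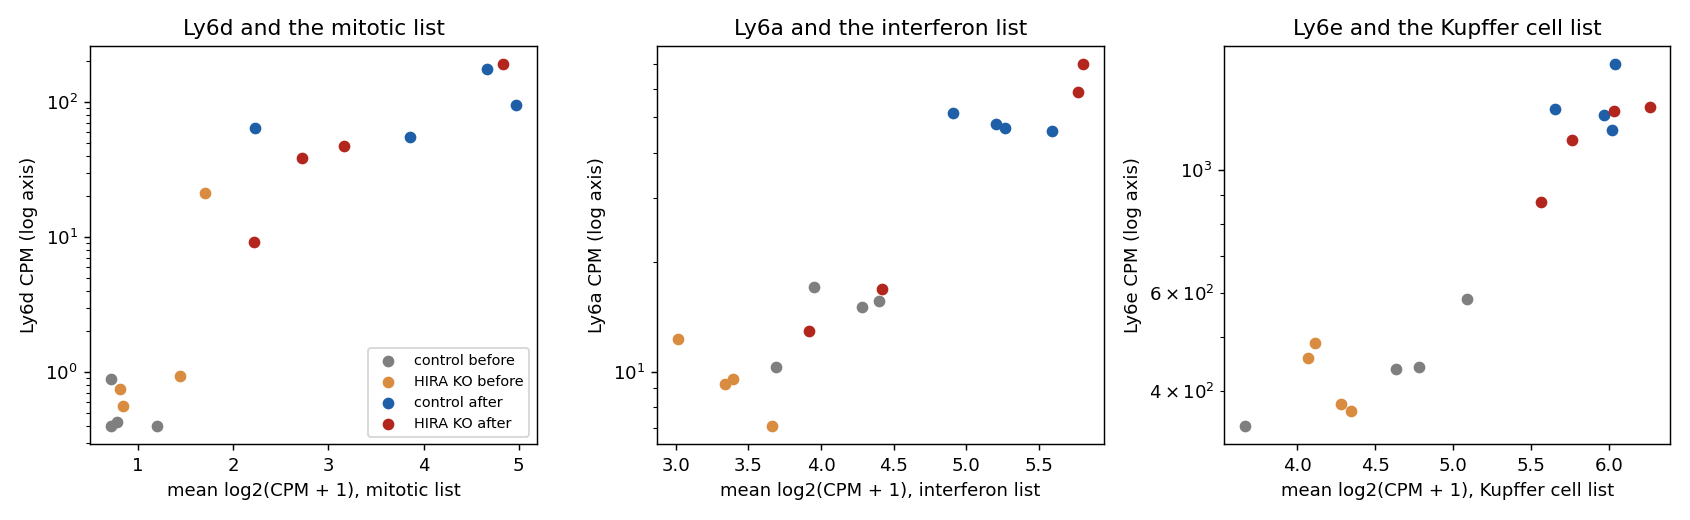
Each of the 16 libraries by the mean log2(CPM + 1) of a gene list (horizontal axis) and the CPM of a Ly6 gene (vertical log axis), for Ly6d and mitotic genes, Ly6a and interferon response genes, and Ly6e and Kupffer cell markers. In the middle panel 2 HIRA KO libraries after regeneration lie at 12.9 and 16.9 CPM of Ly6a and the other 2 at 58.6 and 70.1 CPM.

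Ly6a rose after regeneration in both genotypes. The control libraries before held 15.1, 15.7, 17.1 and 10.3 CPM and those after 51.3, 47.8, 46.7 and 45.9 CPM, with no overlap. The log2 fold change was 1.72 ± 0.44, with an adjusted p of 0.0253 by edgeR. Genes called higher made up 6.04% of all genes tested in control, and those with all libraries after above all before 10.0%. The call was lost when any of 5 single control libraries was left out (before 1, 2 or 4, after 3 or 4), with adjusted p from 0.0514 to 0.0782 and log2 fold changes from 1.58 to 1.76. It was also lost with the running number as a block within each genotype (1.74 ± 0.50, adjusted p of 0.0698).

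In HIRA KO the libraries before held 12.3, 9.27, 9.52 and 7.08 CPM of Ly6a and those after 16.9, 12.9, 58.6 and 70.1 CPM. The groups did not overlap, as for 8.61% of the genes tested, although the lowest library after lay only just above the highest before. The log2 fold change was 2.05 ± 0.45 with an adjusted p of 0.0118, in a comparison where 6.48% of genes were called higher. With the running number as a block within each genotype it was 1.72 ± 0.55 with an adjusted p of 0.0835, and in a fit of those 2 groups alone 2.07 with an adjusted p of 0.0740. Libraries 1 and 2 after regeneration, both among the 4 that lay apart, were the low ones. Without those 4 the log2 fold change was 2.97 ± 0.21 with an adjusted p of 5.59e-06. Ly6a varied much less in control after (SD of 2.39 CPM around 47.9 CPM) than in HIRA KO after (SD of 29.0 CPM around 39.6 CPM).

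The Ly6a levels moved with those of interferon response genes over the 16 libraries, but not within every group. The 3 genes most like Ly6a over the 16 libraries were Oasl2 (r = 0.955), Phf11b (0.950) and Mx1 (0.948). By deviations from group means they were Phf11b (0.909), Phf11d (0.908) and Oasl2 (0.908). Oasl2 and Mx1 are antiviral genes induced by interferon. The HIRA KO libraries after with 16.9 and 12.9 CPM of Ly6a had means of 4.42 and 3.92 over the 18 interferon response genes (log2(CPM + 1)), and those with 58.6 and 70.1 CPM had means of 5.77 and 5.80. In control after the order was reversed, with means of 4.91, 5.21, 5.27 and 5.59 beside 51.3, 47.8, 46.7 and 45.9 CPM of Ly6a. Within HIRA KO before, the library with the most Ly6a (12.3 CPM) had the lowest mean (3.01). The library with the least (7.08 CPM) had the highest (3.67). In control before, the library with the least Ly6a (10.3 CPM) also had the lowest mean (3.69). Of the 18 genes, 8 were called higher after regeneration in control and 15 in HIRA KO, with median log2 fold changes of 1.21 and 1.88. Their summed level was 382 to 578 CPM in control before and 851 to 1357 CPM in control after, 258 to 343 CPM in HIRA KO before and 489 to 1611 CPM in HIRA KO after. Bst2 and Irf7, the most abundant, rose by 1.21 ± 0.23 and 1.76 ± 0.40 in control (log2). The part of the interferon genes in the Ly6a result was not tested.

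Ly6e, already high before, rose in both genotypes with little spread. The control libraries before held 437, 442, 586 and 346 CPM and those after 1254, 1178, 1552 and 1286 CPM. The HIRA KO libraries before held 488, 459, 379 and 368 CPM and those after 1132, 876, 1276 and 1301 CPM. In both genotypes every library after lay above every library before, as for 10.0% of all genes tested in control and 8.61% in HIRA KO. The log2 fold change was 1.54 ± 0.18 in control, with an edgeR adjusted p of 0.000102, and 1.44 ± 0.18 in HIRA KO, with an adjusted p of 0.000142. Without the 4 libraries that lay apart the HIRA KO value was 1.80 ± 0.21 (adjusted p of 0.000292). These calls held under every alternative that was run.

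The genes most like Ly6e over the 16 libraries were B430306N03Rik (r = 0.983), Marco (0.982) and Themis2 (0.980). Marco is a scavenger receptor of Kupffer cells, the resident macrophages of the liver. By deviations from the group means the leading genes were Crnkl1 (0.848), Gnat2 (0.836) and Rac2 (0.826). Of the 12 Kupffer cell markers, 11 were called higher after regeneration in each genotype, with median log2 fold changes of 1.07 in control and 1.57 in HIRA KO. Their summed level ran from 208 to 557 CPM in control before and from 896 to 1146 CPM in control after, and from 276 to 331 CPM and 878 to 1343 CPM in HIRA KO. Cd5l and Clec4f, the most abundant, had log2 fold changes of 1.94 ± 0.24 and 1.12 ± 0.27 in control. The hepatocyte markers, led by Alb and Apoa1, had median log2 fold changes of -0.27 and -0.13 in the genotypes, 1 of 11 being called in control and 2 of 11 in HIRA KO. In HIRA KO after, the mean log2(CPM + 1) was 5.77, 5.57, 6.03 and 6.27 over Kupffer cell markers. Over interferon response genes it was 4.42, 3.92, 5.77 and 5.80. Both lists, Ly6e and Ly6a ordered these libraries alike, so neither pairing is particular to its gene there. In control after neither list had the order of Ly6e. The part of the Kupffer cell markers and of the interferon response genes in the Ly6e result was not tested.

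Ly6c1 and Ly6c2 were low throughout. Ly6c1 held 0.249, 0.161, 0.172 and 0.592 CPM in control before and 1.63, 1.20, 0.436 and 1.20 CPM in control after, and the groups overlapped. In HIRA KO it held 0.953, 0.267, 0.136 and 0.376 CPM before and 0.499, 0.311, 2.23 and 0.723 CPM after. No library had more than 47 counts of Ly6c1. Its FPKM did not scale with its CPM, at 2.06 FPKM beside 0.499 CPM and 4.25 FPKM beside 2.23 CPM in HIRA KO after. Levels and fits of Ly6c1 by FPKM carry that limit. The log2 fold changes of 1.91 ± 0.67 in control and 1.06 ± 0.64 in HIRA KO did not pass the edgeR test (adjusted p of 0.0803 and 0.310). The 4 libraries that lay apart include the lowest of HIRA KO after, at 0.499 and 0.311 CPM. Without these 4 the HIRA KO value passed, at 2.51 ± 0.76 with an adjusted p of 0.0489.

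Ly6c2 held 0.647, 0.430, 0.458 and 0.651 CPM in control before and 1.32, 1.55, 2.18 and 1.92 CPM in control after, without overlap. All libraries after lay above all before for 10.0% of the genes tested in control. In HIRA KO it held 2.49, 0.867, 0.340 and 0.251 CPM before and 6.03, 1.38, 2.85 and 2.73 CPM after. The library numbered 1 was the highest of its group at both times, and its value before lay above the lowest after. The log2 fold changes were 1.66 ± 0.58 in control and 1.68 ± 0.54 in HIRA KO, with edgeR adjusted p of 0.0810 and 0.0547. In control, Ly6c2 was called with the running number as a block (1.77, adjusted p of 0.0329) and with that block within genotype (1.65, adjusted p of 0.00892). In HIRA KO it was called with the same blocks (1.74, adjusted p of 0.0229, and 1.85, adjusted p of 0.00265), without the library numbered 1 before (2.74, adjusted p of 0.00221) and without the 4 libraries that lay apart (3.23, adjusted p of 0.000466). The summed counts of Ly6c1 and Ly6c2 rose in control, by 1.76 ± 0.52 with an adjusted p of 0.0421, and in HIRA KO gave 1.53 ± 0.50 with an adjusted p of 0.0573.

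Over the 16 libraries Ly6c2 was most like Msln (r = 0.909), Prrg4 (0.899) and Gipc2 (0.898). Ly6c1 was most like Gask1b (0.823), Fbln2 (0.820) and Galnt18 (0.815). By deviations from the group means the leading genes were Vegfd (0.927), Ighv6-3 (0.906) and Atp7a (0.898) for Ly6c2, and Pygm (0.866), Ripply3 (0.859) and Pdxdc1 (0.853) for Ly6c1.

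Monocyte markers rose beside Ly6c2, 11 of 12 being called higher after regeneration in control and 9 of 12 in HIRA KO, with median log2 fold changes of 1.75 and 1.76. Their summed level went from between 111 and 189 CPM to between 418 and 496 CPM in control, and from between 108 and 180 CPM to between 383 and 513 CPM in HIRA KO. Ccr2, the chemokine receptor of the same monocytes, rose by 1.51 and 1.49 on the log2 scale. Mpeg1 and Lyz2, the most abundant of the list, rose by 1.83 ± 0.17 and 0.88 ± 0.26 in control. They made up most of the sum, Mpeg1 with means of 96.1 and 342 CPM in control before and after. Ccr2 had means of 1.23 and 3.51 CPM, so the sum says little about it. Kupffer cell markers rose in the same comparisons, 11 of 12 being called higher in each genotype, and their part in this sum was not tested. Of the 15 endothelial markers, 1 was called higher and 4 lower in each genotype, with median log2 fold changes of -0.35 and -0.41. Over all 23018 genes, 960 were called lower in control and 1272 in HIRA KO. Cdh5, named after its call was seen, was the marker called higher, at 0.45 ± 0.12 in control and 0.47 ± 0.12 in HIRA KO. Ly6c1 itself passed in neither. Eng and Ptprb were the most abundant, and Ptprb fell by 0.81 ± 0.17 on the log2 scale in control. Of 10 neutrophil markers, 1 was called higher in control and 2 in HIRA KO, and of 12 T and NK cell markers none was called in either. The part of these cell types in the Ly6c1 and Ly6c2 values was not tested.

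**Figure D3:**
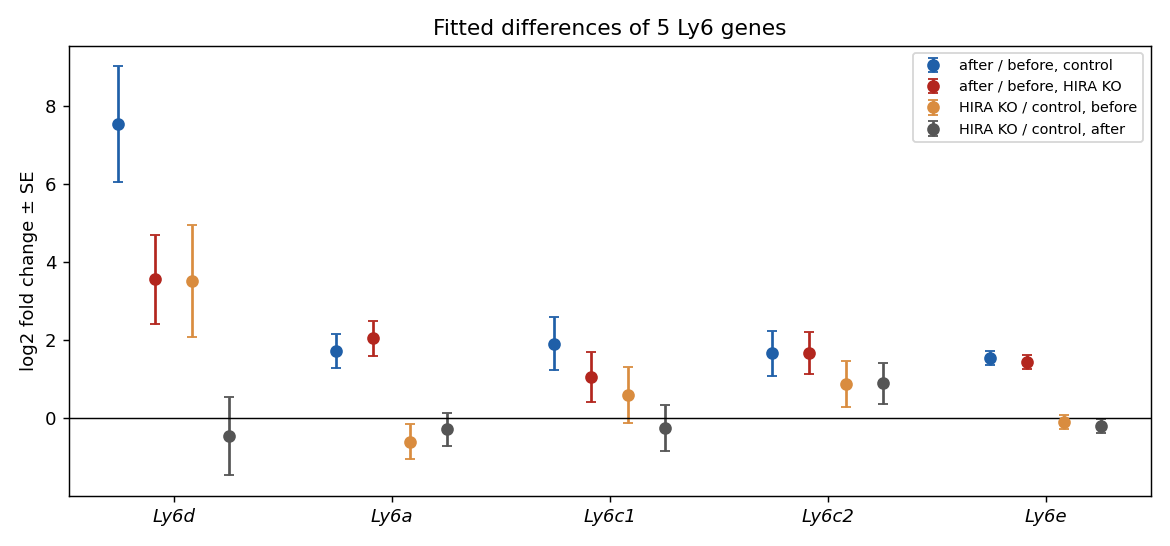
Fitted log2 fold changes of the 5 genes in 4 comparisons, with bars of 1 SE. All 5 are above 0 in both comparisons of after against before, and the HIRA KO differences of Ly6a and Ly6e lie between -0.60 and -0.10.

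None of the 5 genes passed the test for HIRA KO against control at either time. Ly6e differed by -0.10 (interval of -0.46 to 0.27, adjusted p of 0.857) before and by -0.20 (interval of -0.56 to 0.16, adjusted p of 0.617) after regeneration by the edgeR fit, so its intervals end below a change of 1 log2 unit. Those of the other genes were wider. Ly6a gave -0.60 (interval of -1.57 to 0.36, adjusted p of 0.602) before and -0.28 (interval of -1.20 to 0.64, adjusted p of 0.808) after. Without the 4 libraries that lay apart, Ly6a after regeneration was at 0.44 with an adjusted p of 0.301. Ly6c2 gave 0.88 and 0.89 with adjusted p of 0.558 and 0.427, and Ly6c1 gave 0.61 and -0.24 with adjusted p of 0.765 and 0.884. Called genes made up 0.0391% of all genes before and 0.491% after regeneration. Genes whose groups did not overlap made up 8.07% before and 8.10% after, and all 5 Ly6 genes overlapped between the genotypes at both times.

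The difference of the HIRA KO effect between the times was fitted as an interaction. For Ly6a it was 0.33 ± 0.62 (adjusted p of 0.955), for Ly6e -0.10 (interval of -0.62 to 0.41, adjusted p of 0.965) and for Ly6c1 -0.85 (interval of -2.81 to 1.11, adjusted p of 0.891) by edgeR. For Ly6c2 it was 0.02 (interval of -2.56 to 2.59). That of Ly6d, -3.97 ± 1.77, contains the values that chose the set and is given without a test. Called genes made up 0% of all genes, with 1568 genes at an unadjusted p under 0.05 and 67 called by DESeq2.

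Among 40 other Ly6/uPAR genes found in the table, 7 had a mean of at least 1 CPM and 3 (Lypd2, Slurp2 and Pinlyp) were at 0 in all libraries. Of the 11 genes of the chromosome 15 cluster that were tested, 2 were called higher and 1 lower after regeneration in control and 2 higher in HIRA KO, with median log2 fold changes of 2.10 and 1.28. Of the 10 tested elsewhere in the genome, 1 was called lower in each genotype, and the medians were 0.35 and 0.05. The called cluster genes Ly6f, Ly6a2 and Ly6g6g, named after their calls were seen, were scarce, below 1 CPM in every library.

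The abundant relatives did not move as a group. Gpihbp1, which carries lipoprotein lipase across the capillary wall, held 17.4 to 19.2 CPM in control before and 7.03 to 12.7 CPM in control after, and fell by 0.82 ± 0.16 on the log2 scale (edgeR adjusted p of 0.00312). In HIRA KO its value of -0.38 ± 0.15 did not pass the test (adjusted p of 0.119). Cd59a, an inhibitor of the complement attack complex, fell by 0.88 ± 0.14 in control (adjusted p of 0.00122) and by 0.55 ± 0.14 in HIRA KO (adjusted p of 0.0186). Its copy Cd59b gave -1.16 and -0.61 (adjusted p of 0.0940 and 0.396). Ly6g2, the most abundant relative, gave 0.29 ± 0.25 in control and 0.05 ± 0.25 in HIRA KO. Lynx1, a modulator of nicotinic receptors, gave 0.98 ± 0.31 (adjusted p of 0.0545) and 0.61 ± 0.30, and Plaur, the urokinase receptor, gave 0.84 ± 0.51 and 0.76 ± 0.48.

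The transcribed pseudogene 9030619P08Rik split in HIRA KO after regeneration as Ly6a did. It held 4.35 to 7.15 CPM in control before and 19.0 to 35.6 CPM in control after. In HIRA KO after, the libraries held 5.71, 5.60, 41.6 and 23.2 CPM, the low ones being those numbered 1 and 2. The same numbers were already low in HIRA KO before (2.59, 4.00, 14.7 and 10.1 CPM). Ly6a was not split in that way before (12.3, 9.27, 9.52 and 7.08 CPM). The log2 fold changes of 2.10 ± 0.67 in control and 1.28 ± 0.65 in HIRA KO did not pass the test (adjusted p of 0.0659 and 0.228).

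**Figure D4:**
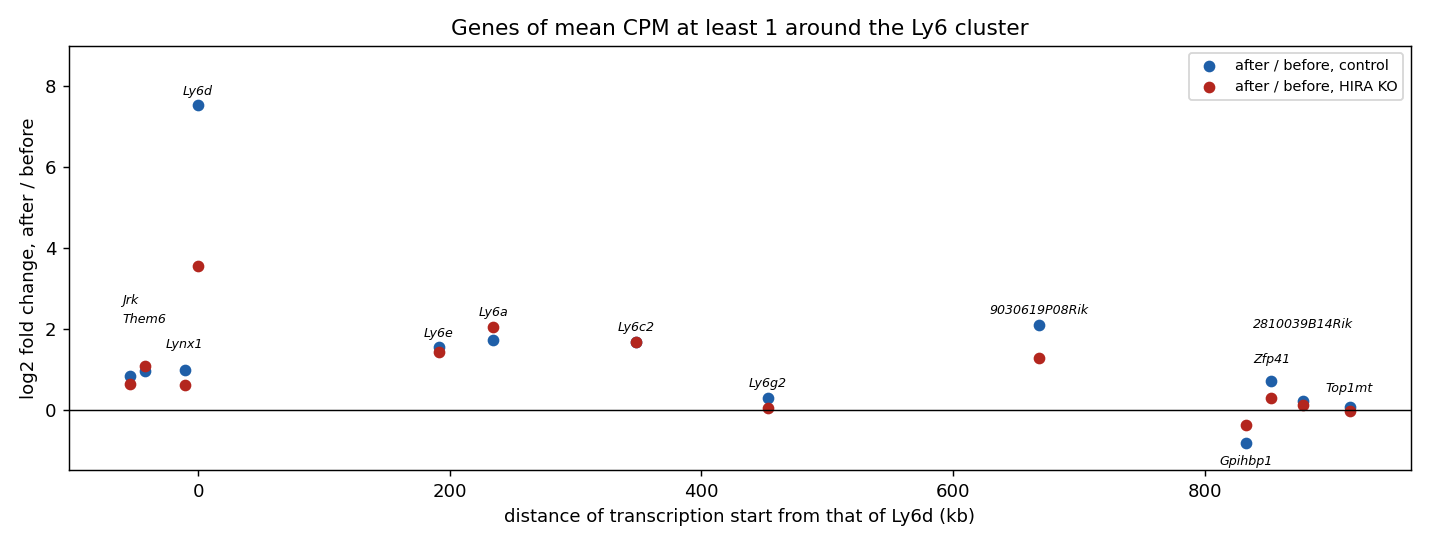
Log2 fold change after against before regeneration in control and HIRA KO for the 13 genes with a mean of at least 1 CPM in and around the cluster, by distance in kb of their transcription start from that of Ly6d. Ly6d stands at 7.53 in control and 3.56 in HIRA KO, and the other 12 genes lie between -0.82 and 2.10.

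Among genes with a mean of at least 1 CPM, the neighbours of Ly6d did not share its steep rise, which chose the set. Within the cluster and 200 kb on either side, 63 genes were annotated and 13 had a mean of at least 1 CPM. Of the 9 that are not among the 5 Ly6 genes, 1 was called higher and 1 lower in control, and 1 was called higher in HIRA KO. Lynx1, whose start lies 10.6 kb from that of Ly6d, and Them6, at 42.4 kb, had log2 fold changes of 0.98 and 0.95 in control, and Them6 was called in both genotypes (adjusted p of 0.0102 and 0.00558). Them6 and the other neighbours outside the family were chosen for their position. Of the 11 other cluster genes tested, scarcer ones included, 10 were positive in control. The largest values, named after they were seen, were 4.11 ± 1.30 for Ly6g6g, 3.97 ± 0.99 for Ly6a2 and 3.30 ± 1.12 for Ly6k.

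Genes that build or trim the GPI anchor changed little. Of 26 measured, 2 were called higher in control (Pigt and Pgap2), and 1 higher and 2 lower in HIRA KO (Pgap2, and Pigg with Pgap1). The median over them was 0.08 (log2) in control livers and 0.07 in HIRA KO livers. Pigt and Pigq were the most abundant, and Pgap2, which remodels the lipid of the anchor, rose by 0.53 ± 0.12 and 0.51 ± 0.12. Their summed level ran from 374 to 417 CPM in control before and from 431 to 453 CPM in control after.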

How the data were processed

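RNA of 16 liver samples was measured, the samples before and after being lobes of the same mice. Per the labels and the methods of the study, the authors aligned reads to mm10 with STAR. The deposited counts are whole reads per gene, which the methods credit to HOMER while the submitters' processing notes name HTSeq. The deposited FPKM were made by the authors per transcript length and library size, for which the notes name Cufflinks, and they were used for levels between genes and for alternatives. Depth was 15103059 to 21738619 counts, and intervals of low genes are wide.

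The 5 genes and all lists were chosen with earlier results of these data known. Genes with at least 10 counts in total (23018) were fitted in edgeR (version 4.0.16) with TMM factors, 4 group means and the robust quasi-likelihood test, Benjamini-Hochberg adjustment over all of them and calls at 0.05. SEs follow from the test statistic. Replicates are columns of a group, nothing ties a column to a sample label, and p-values measure the spread between these libraries. Named were the 5 genes, Hira, family genes of mean CPM of at least 1, the 2 most abundant genes of each list except the neutrophil and the T and NK cell lists, markers at 0, and by likeness the genes most like each Ly6 gene (8 for Ly6d and 3 otherwise, among genes with mean CPM of at least 1). Other genes, such as Krt5, Krt14, Trp63, Ms4a1, Ccr2, the called genes of small lists and the neighbours of Ly6d, were named after their values were seen. Lists were described by counts and medians. Ly6m, Ly6a2, Ly6g6g and Ly6g2 were matched by gene ID, and Tf and Pigy were not analysed here. Deviations of same-numbered libraries before and after correlated at 0.587, 0.386, 0.463 and 0.579 in HIRA KO and at 0.201, 0.279, 0.0805 and 0.377 in control. The criterion for pairing, a value over 0.1 in every pair, was met in HIRA KO but not in control. Same-numbered libraries of control before and HIRA KO before, which are different mice, also met it, at 0.254, 0.231, 0.197 and 0.305. The criterion therefore cannot show which libraries come from 1 mouse, and no label says what a number marks. The fit carries no block, and the blocked value is given where it changed a call. DESeq2 (version 1.42.0), limma (version 3.58.1) on log2(FPKM + 0.1), other filters, blocks and left-out libraries were alternatives. The edgeR procedure was tested on simulated data. Only well-counted genes were changed there, so it cannot speak for Ly6c1, Ly6c2 or other genes of low count.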

Additional observations from a re-analysis of the deposited data

Results flagged for a closer look

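Across 48 tests of a group of 4 libraries for a value far from the others, over the 5 Ly6 genes and 7 relatives, 2 stood out, and chance alone flags about 1 in 20 groups. In HIRA KO before regeneration, 1 library held 21.3 CPM of Ly6d and the next highest 0.934 CPM, a gap of 0.982 of the group's range. In control before regeneration, 1 library held 0.888 CPM of Ly6d and the next highest 0.430 CPM, a gap of 0.934 of the range, with 15 counts against 7 or 8.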

How the results depend on the processing

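Of 495 values of the 5 Ly6 genes under alternatives, 423 kept their direction and their side of the threshold, or their size, 39 changed sign, 22 newly passed the threshold, 8 lost it and 3 moved. The rise of Ly6e after regeneration passed in every fit that was run. The cause of the changes was not tested. Low counts limit Ly6c1 and Ly6c2 throughout, and Ly6d before regeneration.

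Genes called for HIRA KO before numbered 9, but 375 with DESeq2, 36 with no filter, 104 with a replicate block of the running number, 25, 5 and 1 with limma on log2(FPKM + 0.1), log2(FPKM + 1) and log2(FPKM + 0.1) without a filter, 5 without the 4 libraries that lay apart, and 1 to 33 with single libraries left out. For HIRA KO after they numbered 113, but 910, 228 with filterByExpr, 0 in a fit of those groups alone, 565 with the block, 68, 61 and 25 with limma, 15 without the 4 libraries, and 5 to 452 with single libraries left out. For regeneration they ranged from 1530 to 2357 in control and from 1678 to 2771 in HIRA KO with single libraries left out, with 1365 by limma without a filter in control and 1431 in a fit of the HIRA KO groups alone. For the interaction they numbered 67 with DESeq2, 1 with no filter, with the block and by limma at 0.1, 9 with the block within genotype, and 0 to 7 with single libraries left out.

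Regeneration in control, running number as replicate block, gave 1.77 for Ly6c2 (adjusted p of 0.0329), and within genotype 1.65 for Ly6c2 and 1.74 for Ly6a (adjusted p of 0.00892 and 0.0698). In HIRA KO the block gave 1.74 for Ly6c2, and within genotype 1.85 for Ly6c2 and 1.72 for Ly6a. For the interaction the block gave -0.03 for Ly6c2, and within genotype -0.02 for Ly6a. It changed no other call of the 5 genes. Every control library correlated best with its own number, and 3 of 4 in HIRA KO.

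In control, Ly6c1 and Ly6c2 passed with DESeq2 (1.94 and 1.67) and in a fit of those groups alone (1.92 and 1.67), and Ly6c1 with limma (1.70 at 0.1 and 1.07 at 1), where Ly6d was at 6.26 on log2(FPKM + 1). In HIRA KO, Ly6c2 passed with DESeq2 (1.71) and filterByExpr (1.70), Ly6c1 and Ly6c2 with limma (1.80 and 2.12 at 0.1, with and without a filter, 1.05 and 1.37 at 1), Ly6a did not in a fit of those groups alone (2.07), and without the 4 libraries Ly6d, Ly6c1 and Ly6c2 were at 7.53, 2.51 and 3.23. With single libraries left out, Ly6a in control ran from 1.58 to 1.81, and Ly6d and Ly6c2 in HIRA KO from 2.39 to 6.59 and from 1.21 to 2.74.

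Sign changes touched only differences that passed no test. With single libraries left out, HIRA KO before ran from -0.14 to 1.15 for Ly6c1, -0.17 to 1.19 for Ly6c2 and -0.22 to 0.05 for Ly6e, HIRA KO after from -1.62 to 0.06 for Ly6d, -0.69 to 0.03 for Ly6a and -1.11 to 0.06 for Ly6c1, passing 0.00, and the interaction from -0.08 to 0.64 for Ly6a, -0.44 to 1.07 for Ly6c2 and -0.24 to 0.03 for Ly6e. By limma, HIRA KO before was -0.17 (at 0.1) and -0.03 (at 1) for Ly6c1 and 0.09 for Ly6e, and the interaction -0.08 and -0.10 for Ly6a and 0.10 for Ly6c1. Without the 4 libraries, chosen after seeing the data as was the block within genotype, HIRA KO before was -0.15 for Ly6c1 and -0.88 for Ly6c2, HIRA KO after 0.31 for Ly6d, 0.44 for Ly6a and 0.45 for Ly6c1, and the interaction 0.60 for Ly6c1 and 0.26 for Ly6e.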
